A study of Homo sapiens with 6 samples.

Results

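Chemokines are small secreted proteins that guide the movement of cells, and their receptors are G protein-coupled receptors on the surface of the cells that respond. The genes described here are the chemokines and chemokine receptors of the array other than CXCR4 and ACKR3, the receptors of CXCL12. They were chosen by gene symbol (CCL, CXCL, XCL, CX3CL, CCR, CXCR, XCR, CX3CR or ACKR with a number), and each had a single named probe set. This gave 57 of the 17687 named genes, of which 38 encode chemokines and 19 receptors. The 6 Affymetrix arrays measured RNA of Jurkat, a single human line established from the leukaemic T cells of a patient with acute lymphoblastic leukaemia. All cells were grown in medium with 10% serum and then kept without serum for 90 min. Of the groups, 1 was left without stimulus (untreated, n = 3) and the other received CXCL12 protein at 100 ng/ml for 15 min (CXCL12, n = 3). The question, as the series puts it, was how the expression profiles of the 2 groups compare.

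Homeostatic chemokines and receptors, such as CCL19, CCL21 and CCR7, direct lymphocytes through lymphoid organs, while inflammatory ones, such as CXCL1 to CXCL3, are made on demand and draw leukocytes into damaged tissue. Receptors couple to inhibitory G proteins, and the atypical receptors (ACKR genes) bind and remove chemokines without that coupling. T cells carry several of the receptors, in combinations that mark their stage and destination. Many inflammatory chemokine genes are targets of NF-kB, a transcription factor activated by danger and antigen signals.

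The sequence that sets a group of these genes apart lies before the inflammatory CXC chemokines CXCL1, CXCL2, CXCL3, CXCL5 and CXCL6, which attract neutrophils through CXCR2. RefSeq promoter windows (250 bases before to 50 after a start, GRCh38.p14) matched 42 of the 57 genes, with 53 windows. Both strands were searched for 4 motifs: GGGA, any base, then TTTCC for NF-kB, TGANTCA for AP-1 (the JUN and FOS factor), GCGNGGGCG for EGR factors, and TATAAA for the TATA box. NF-kB sites of another form were not searched for, so a gene without a match may still hold such a site. The NF-kB letters stood in the windows of these 5 genes and of no other matched gene, 9.43% of the 53 windows against 0.558% of all 35116. In each the match read GGGAATTTCC, beginning 79 bases before the start in CXCL1 and CXCL3, 78 in CXCL2, 91 in CXCL5 and 90 in CXCL6. The 100 bases before each start are printed with the match in capitals, because these neighbouring genes share the motif and their array values are set side by side later.
CXCL1 (chr4:73869293-73869392, + strand): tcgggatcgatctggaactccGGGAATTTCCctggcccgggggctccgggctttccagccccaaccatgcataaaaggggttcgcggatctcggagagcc
CXCL2 (chr4:74099196-74099295, - strand): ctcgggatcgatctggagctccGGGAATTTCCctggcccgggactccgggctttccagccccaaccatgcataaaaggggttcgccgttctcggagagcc
CXCL3 (chr4:74038690-74038789, - strand): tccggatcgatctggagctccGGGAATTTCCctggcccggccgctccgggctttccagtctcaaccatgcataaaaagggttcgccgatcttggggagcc
CXCL5 (chr4:73998678-73998777, - strand): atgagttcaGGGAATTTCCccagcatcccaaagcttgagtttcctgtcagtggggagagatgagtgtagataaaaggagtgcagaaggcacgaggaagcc
CXCL6 (chr4:73836578-73836677, + strand): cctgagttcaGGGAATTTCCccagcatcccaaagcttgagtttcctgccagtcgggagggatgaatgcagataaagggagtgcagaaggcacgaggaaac

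These stretches fell into a CXCL1, CXCL2 and CXCL3 kind and a CXCL5 and CXCL6 kind. Aligned over their length, CXCL1 and CXCL2 were 94.1% identical, CXCL1 and CXCL3 90.0%, CXCL2 and CXCL3 89.1%, and CXCL5 and CXCL6 90.1%, against 46.9% to 50.5% between the kinds. AP-1 letters stood in 18.9% of the windows, those of CCL7, CCL24, CCL27, CCR2, CXCL8, CXCL11, CXCL14, CXCL17 and CXCR6 among them, against 7.71% of all windows. The TATA box stood in 26.4% against 11.5%, and the EGR letters in 0% against 9.43%. These shares describe letters, not bound sites, and neighbouring gene copies share sequence.

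Most of the 57 genes had low signals. The mean of 33 genes (57.9%) lay at or above the 25th percentile of all probe-set means, a log2 signal of 4.44, against 75% of all probe sets by construction and 76.1% of named genes. The share was the same for chemokines (22 of 38, 57.9%) and receptors (11 of 19, 57.9%). Only 5 genes, 3 chemokines and 2 receptors, exceeded the median of all probe sets (6.19), and 0 exceeded the 75th percentile (7.78). A total of 25 genes lay above the array's own 25th percentile on all 6 arrays, 16 on none and 16 on some. The limit does not mark detection, and signals of different probe sets do not rank transcripts, since probes differ in affinity.

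The labelled cell type was checked against its markers. All 14 listed T-cell markers were above the limit, with means from 4.57 for RAG1 and 6.21 for PTCRA to 11.16 for CD3E and 11.42 for LCK. The lowest array of RAG1 (4.10) was below the limit. Markers of other cell types also passed it: 4 of 5 for B cells, 7 of 9 for monocytes and macrophages, 3 of 6 for NK cells, 6 of 7 for endothelium and fibroblasts and 6 of 6 for platelets and red cells. Of 348 olfactory receptor genes, a family looked up after the results were seen, 31 (8.91%) were above it. Summed on the linear scale, the NK list lay at 8.48 to 8.60 (log2) in untreated and 8.32 to 8.49 in CXCL12 arrays, and the B-cell list at 9.31 to 9.35 and 9.19 to 9.36. The monocyte list lay at 8.53 to 8.77 and 8.56 to 8.70, the endothelial and fibroblast list at 9.28 to 9.38 and 9.37 to 9.42, the platelet list at 8.45 to 8.501 and 8.43 to 8.57, and the T-cell list at 13.45 to 13.47 and 13.39 to 13.46. Their part in the results was not tested. Array medians ran from 6.18 to 6.22, and untreated replicate 1 had the lowest mean correlation with the other arrays (0.982, the others 0.987 to 0.989).

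**Figure D1:**
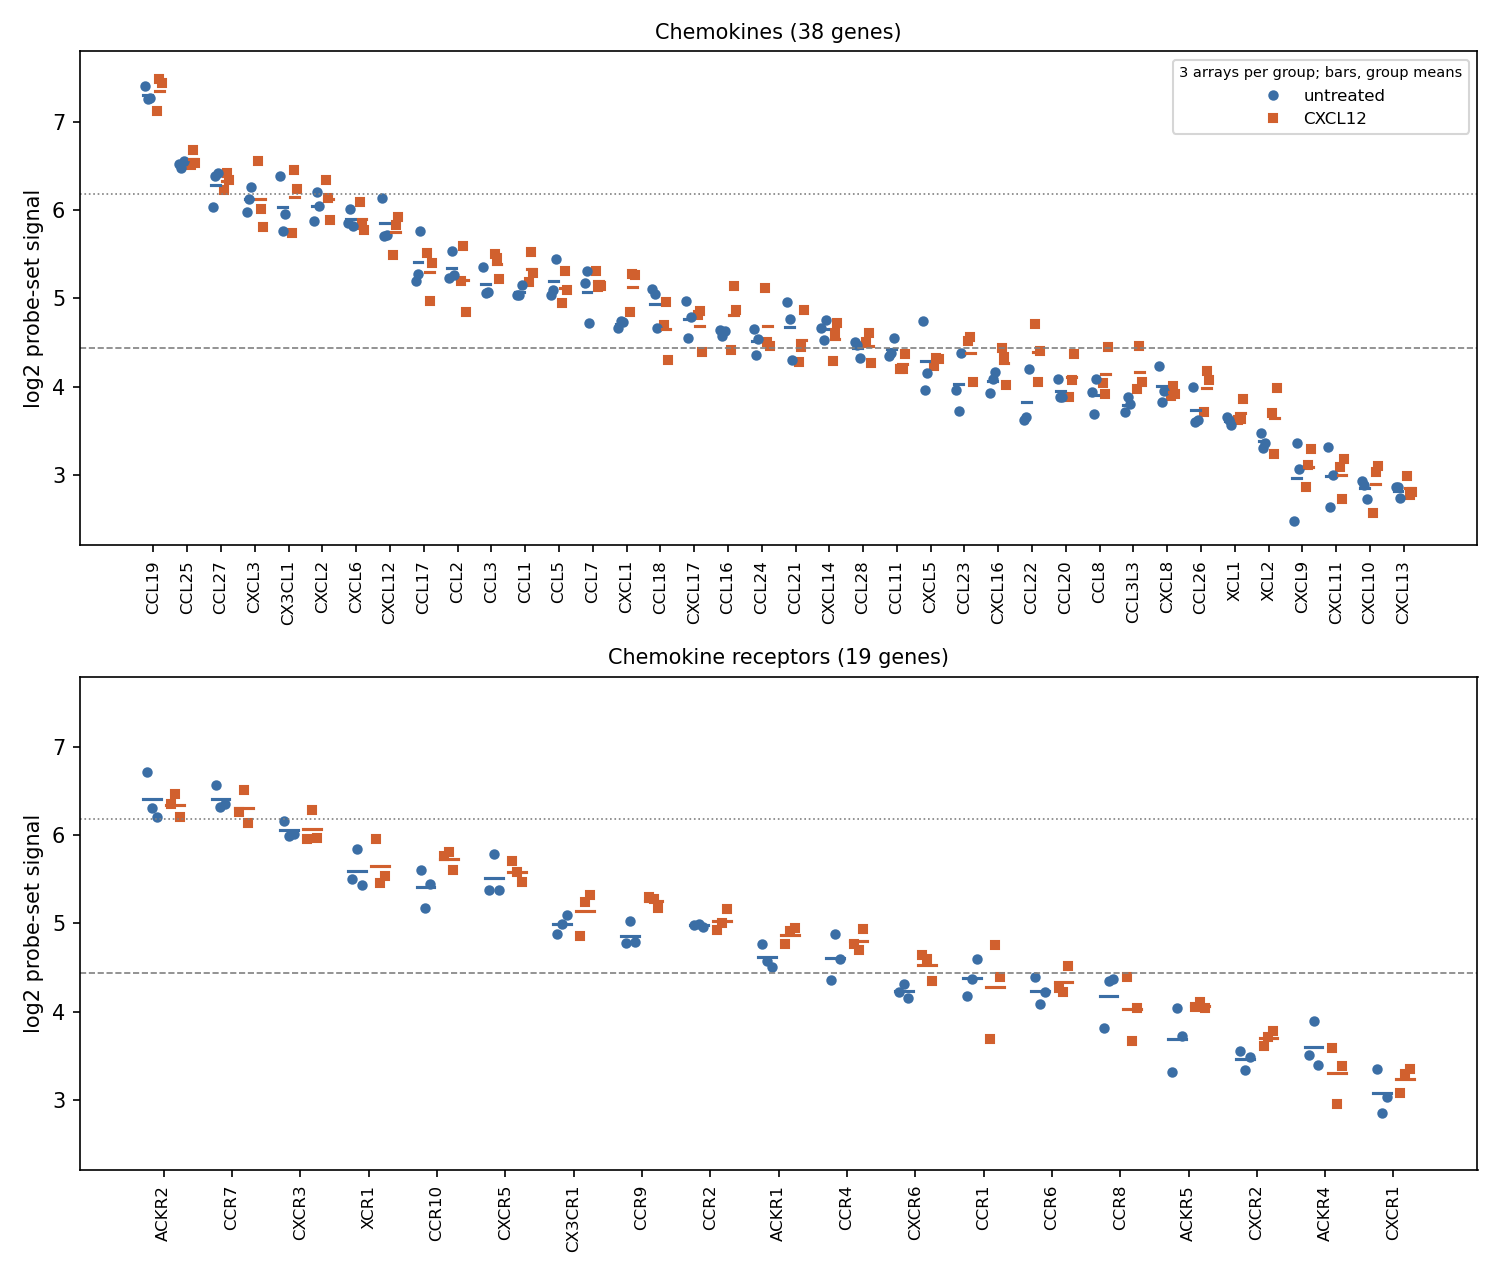
Log2 probe-set signal (vertical axis) of the 38 chemokines and 19 receptors (horizontal axis, by mean signal), with 3 untreated arrays as circles, 3 CXCL12 arrays as squares and group means as bars. The dashed line is the 25th percentile of all probe-set means (4.44) and the dotted line the median (6.19). Most genes sit between the lines or below the dashed one. The groups are separate for 4 tested genes (12.1%, against 9.54% of all probe sets tested). They are also separate for 3 untested genes below the dashed line (12.5%, against 9.68% of all probe sets there).

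No chemokine or receptor passed the adjusted threshold after CXCL12. Of 33 tested, 0 rose and 0 fell by limma at an adjusted p under 0.05, where 0.0124% of all probe sets tested passed, each of them higher. Without adjustment, 3 genes (9.09%) had a limma p under 0.05, namely CCR9, CXCL1 and CCR10, against 4.73% of all probe sets. All 3 were higher, where 2.72% of all probe sets were higher and 2.01% lower at that level. For 4 genes (12.1%), these 3 and CCL1, untreated and CXCL12 arrays were fully separate, against 9.54% of all probe sets. Each of the 4 was higher with CXCL12, against 5.05% higher and 4.48% lower over all probe sets. After renormalization (quantile, median centring or cyclic loess) 2 genes reached the unadjusted p and 3 were fully separate. These counts are too small to set the genes apart from the background. The median log2 change was 0.05, with 23 positive and 10 negative changes (69.7% positive, against 50.7% of all probe sets), and the median over all probe sets tested was 0.00228. The same renormalizations left 19 or 20 positive changes and a median of 0.03. Before renormalization, the 31 olfactory receptor genes above the limit, looked up after the results were seen, had 21 positive and 10 negative changes. Their median was 0.14. Whether the direction is particular to the chemokine and receptor genes was not tested.

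The 95% limma intervals hold for each tested gene's probe-set signal singly, not for the 33 genes together. Most of these signals lay under the median of all probe sets, and genes below the limit are not covered. For 29 of the 33 genes the 95% limma interval stayed under 1.5-fold in both directions. It reached a 1.5-fold rise for CXCL1, CCR9 and CCR10 and a 1.5-fold fall for CCL18. A gene's interval extended 0.25 to 0.42 on the log2 scale to each side of its change.

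**Figure D2:**
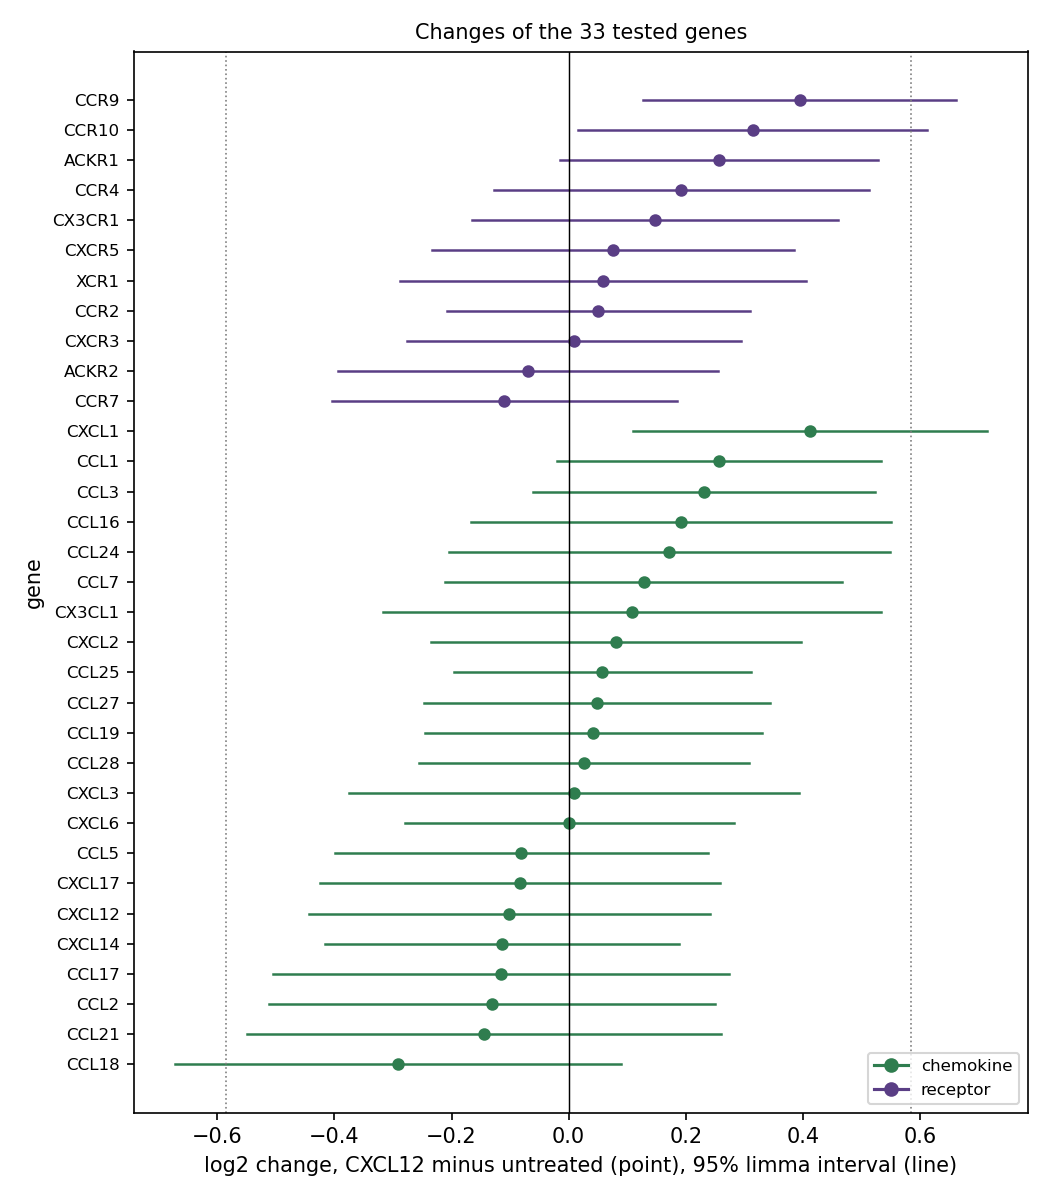
Log2 change, CXCL12 minus untreated (horizontal axis), of the 33 tested genes (vertical axis), as a point with its 95% limma interval as a line. Dotted lines mark a 1.5-fold change. The intervals of CCR9, CCR10 and CXCL1 lie above 0, and each of the others includes it.

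Among receptors of lymphocyte homing, CCR9 had the smallest p. CCR9, the receptor of CCL25, guides T cells to the gut and is carried by thymocytes. Its log2 signal was 4.77, 5.03 and 4.78 in untreated replicates 1, 2 and 3 and 5.30, 5.28 and 5.18 in the CXCL12 replicates. Every CXCL12 array was above every untreated array. The means were 4.86 ± 0.14 and 5.25 ± 0.07 (SD, n = 3 each), a log2 change of 0.39 (SE 0.12, 95% interval 0.13 to 0.66) and 1.31-fold. The unadjusted limma p was 0.0075, and the adjusted p was 0.996. With each array left out in turn the change ran from 0.35 to 0.48, and across all settings the adjusted p stayed at or above 0.594.

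CCR10, the receptor of CCL27 and CCL28 on skin-homing and mucosal lymphocytes, followed. It read 5.60, 5.18 and 5.45 untreated and 5.76, 5.80 and 5.61 with CXCL12. The groups were separate, though untreated replicate 1 (5.602) and CXCL12 replicate 3 (5.606) were all but equal. The means were 5.41 ± 0.22 and 5.72 ± 0.11 (SD, n = 3 each), a log2 change of 0.31 (SE 0.14, limma adjusted p = 0.996). The change was 0.20 without untreated replicate 2.

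CCR7, which brings naive and central memory T cells into lymph nodes and is a known NOTCH and T-cell leukaemia gene, was among the receptors above the median of all probe sets. It read 6.57, 6.32 and 6.36 untreated and 6.26, 6.51 and 6.14 with CXCL12. The groups overlapped, with a log2 change of -0.11 (95% interval -0.40 to 0.18, limma adjusted p = 0.996). It was -0.03 without CXCL12 replicate 3 and -0.21 without CXCL12 replicate 2. CXCR5, the receptor of CXCL13 that leads lymphocytes into B-cell follicles, read 5.38, 5.78 and 5.38 against 5.71, 5.58 and 5.47. Its change was 0.08 (-0.23 to 0.38), with untreated replicate 2 the highest array. Without that array the change was 0.21, and without untreated replicate 1 it was 0.00718. CCR4, the receptor of CCL17 and CCL22 on type 2 and regulatory T cells, read 4.35, 4.88 and 4.59 against 4.77, 4.69 and 4.94, close to the limit. Its change was 0.19 (-0.13 to 0.51), or 0.07 without untreated replicate 1, which was below the limit. CCR8, another receptor of such T cells, was below the limit and not tested, at 3.81, 4.35 and 4.37 against 4.39, 3.67 and 4.04.

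The receptors of inflammatory ligands showed no separation among those tested. CXCR3, the receptor of CXCL9, CXCL10 and CXCL11 on effector T cells, read 6.16, 5.996 and 6.02 untreated and 5.95, 6.28 and 5.97 with CXCL12. The means differed by 0.01 (95% interval -0.28 to 0.29), and this change turned negative under each of the 3 renormalizations. XCR1, best known from cross-presenting dendritic cells, read 5.50, 5.84 and 5.44 against 5.95, 5.46 and 5.54, a change of 0.06 (-0.29 to 0.40). CX3CR1 and CCR2, receptors of monocytes and effector lymphocytes, had changes of 0.15 (-0.16 to 0.46) and 0.05 (-0.21 to 0.31).

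The atypical receptors ACKR1 and ACKR2 were tested. ACKR1, the Duffy antigen receptor for chemokines of red cells and venules, read 4.77, 4.57 and 4.51 untreated and 4.76, 4.91 and 4.94 with CXCL12. Untreated replicate 1 lay just above CXCL12 replicate 1, and the other arrays were separate. The log2 change was 0.26 (SE 0.12, unadjusted p = 0.061, limma adjusted p = 0.996). ACKR2, a scavenger of inflammatory CC chemokines, read 6.713, 6.312 and 6.205 against 6.355, 6.464 and 6.204, a change of -0.07 (95% interval -0.39 to 0.26). Untreated replicate 1 was its highest array, and without it the change was 0.08. Of the 11 tested receptors 9 had a positive change, with a median of 0.08. The count was 8 under each of the 3 renormalizations, with medians of 0.04 to 0.05, and 7 to 10 when each array was left out. Both receptors left out by the rule were lower on average with CXCL12 and did not pass (CXCR4 from 10.93 to 10.55, ACKR3 from 4.89 to 4.74).

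Among homeostatic chemokines, the genes of CCL19 and CCL21, both ligands of CCR7, lie beside each other in the RefSeq gene order. CCL19 read 7.40, 7.26 and 7.27 untreated and 7.12, 7.49 and 7.44 with CXCL12, a log2 change of 0.04 (95% interval -0.25 to 0.33). CXCL12 replicate 1 was the lowest of the 6. CCL21 read 4.95, 4.77 and 4.31 against 4.28, 4.45 and 4.86, a change of -0.14 (-0.55 to 0.26) with arrays of both groups on both sides of the limit. Leaving out untreated replicate 1 gave -0.00483, and leaving out untreated replicate 3 gave -0.33. CCL25, the thymic and gut ligand of CCR9, read 6.53, 6.48 and 6.56 against 6.52, 6.69 and 6.54. Its change of 0.06 (-0.20 to 0.31) had the narrowest interval of the 33 genes.

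CCL27 and CCL28, the skin and mucosal ligands of CCR10, had changes of 0.05 (95% interval -0.25 to 0.34) and 0.03 (-0.26 to 0.31). CCL27 read 6.04, 6.39 and 6.42 untreated and 6.22, 6.42 and 6.35 with CXCL12, with untreated replicate 1 the lowest. The transcript of CXCL12, the chemokine that was added as protein, read 6.14, 5.70 and 5.71 untreated and 5.49, 5.83 and 5.93 with CXCL12. The arrays overlapped, with a change of -0.10 (-0.44 to 0.24, limma adjusted p = 0.996). It was 0.04 when untreated replicate 1 was left out. CXCL14, a chemokine of epithelia, read 4.66, 4.53 and 4.76 against 4.29, 4.60 and 4.71, a change of -0.11 (-0.42 to 0.19).

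Of the neutrophil-attracting CXC chemokines whose promoter stretches are printed above, CXCL1 was the one with separate groups. It read 4.66, 4.74 and 4.73 untreated and 4.84, 5.27 and 5.26 with CXCL12. Each CXCL12 array was above each untreated array, with CXCL12 replicate 1 the nearest to them. The means were 4.71 ± 0.04 and 5.12 ± 0.25 (SD, n = 3 each), a log2 change of 0.41 (SE 0.14, 95% interval 0.11 to 0.71), or 1.33-fold, with an unadjusted limma p of 0.0116 and an adjusted p of 0.996. The change was 0.34 without CXCL12 replicate 2 and 0.55 without CXCL12 replicate 1.

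CXCL2 read 5.88, 6.21 and 6.05 untreated and 6.35, 6.14 and 5.89 with CXCL12, a log2 change of 0.08 (95% interval -0.23 to 0.40). CXCL3 read 5.97, 6.13 and 6.26 against 6.56, 6.02 and 5.81, a change of 0.01 (-0.38 to 0.39). In both, CXCL12 replicate 1 was the highest array and replicates 2 and 3 lay lower, whereas in CXCL1 replicate 1 was the lowest of the CXCL12 arrays. CXCL6 read 5.86, 6.01 and 5.82 against 6.09, 5.83 and 5.78, a change of 0.00114. CXCL5 was below the limit, at 4.74, 3.96 and 4.15 against 4.23, 4.33 and 4.32, and so was CXCL8 (interleukin 8), the best known NF-kB-induced member, at 4.23, 3.83 and 3.95 against 3.89, 4.005 and 3.92. CXCL1, CXCL2 and CXCL3 are near-identical copies, so their probes could read each other's transcripts and the values of single genes are uncertain. The difference between CXCL1 and its neighbours was not tested.

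**Figure D3:**
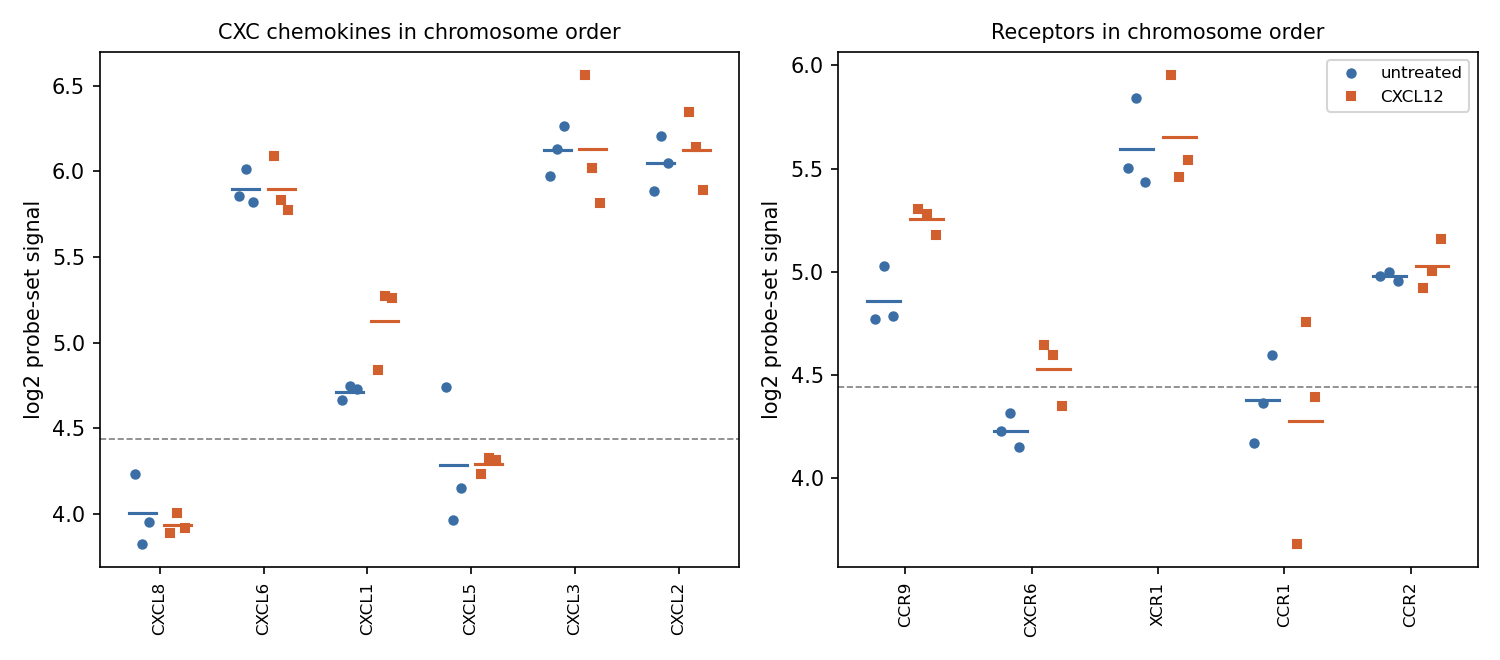
Log2 probe-set signal (vertical axis) of CXC chemokines (left) and receptors (right) that are neighbours in the RefSeq gene order (horizontal axis), with untreated arrays as circles, CXCL12 arrays as squares and group means as bars. The dashed line is the limit of 4.44. CXCL1 alone in the left panel, and CCR9 and CXCR6 in the right one, have all CXCL12 arrays above all untreated arrays. Over all probe sets, 5.05% of those tested and 6.04% of those below the limit do.

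Inflammatory CC chemokines were scattered around 0. CCL3, a ligand of CCR1 that activated T cells secrete, read 5.36, 5.06 and 5.07 untreated and 5.50, 5.45 and 5.22 with CXCL12, a log2 change of 0.23 (95% interval -0.06 to 0.52). Untreated replicate 1 lay above CXCL12 replicate 3. CCL1, a ligand of CCR8 from activated T cells, read 5.03, 5.04 and 5.15 against 5.19, 5.52 and 5.28 without overlap, a change of 0.26 (-0.02 to 0.53, limma adjusted p = 0.996). CCL5 (RANTES), which effector T cells store, read 5.04, 5.10 and 5.45 against 4.94, 5.31 and 5.09, a change of -0.08 (-0.40 to 0.24).

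CCL18, a chemokine of dendritic cells and macrophages, had the lowest change of those tested. It read 5.11, 5.05 and 4.66 untreated and 4.69, 4.95 and 4.30 with CXCL12, with untreated replicate 3 inside the CXCL12 range. The change was -0.29 (SE 0.18, 95% interval -0.67 to 0.09, limma adjusted p = 0.996), -0.12 without CXCL12 replicate 3 and -0.44 without CXCL12 replicate 2. CX3CL1 (fractalkine), the membrane-bound ligand of CX3CR1, had the widest interval of the 33 genes. It read 6.39, 5.76 and 5.96 against 5.75, 6.45 and 6.24, a change of 0.11 (-0.32 to 0.53). The 10 tested genes outside the naming rule had changes from -0.13 to 0.26. Of the 22 tested chemokines 14 had a positive change, with a median of 0.03. Under the renormalizations 11 or 12 did, with a median of 0.01.

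The 24 genes below the limit, 16 chemokines and 8 receptors with means from 2.83 to 4.38, were not tested. Of these, 19 (79.2%) had a positive change, against 55.9% of the 5362 probe sets below the limit, with a median of 0.14 against 0.03. The arrays did not overlap for 3 (12.5%, against 9.68%), each higher with CXCL12 (against 6.04% higher and 3.64% lower): CXCR6, CXCR2 and CCL3L3. The CXCL12 arrays' own 25th percentiles (4.45, 4.47 and 4.44) stood beside untreated ones of 4.44, 4.41 and 4.41, with CXCL12 replicate 3 (4.4395) just under untreated replicate 1 (4.4403). Their part in these changes was not tested. Renormalized, 17 or 18 of the 24 were positive, with medians of 0.11 to 0.12 while that of all probe sets below the limit was 0.00295 to 0.00416. Without CXCL12 replicate 3 the median of the 24 was 0.04, and without CXCL12 replicate 1 it was 0.22.

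CXCR6, the receptor of CXCL16 on tissue-resident T cells, lay just below the limit. It read 4.23, 4.32 and 4.15 untreated and 4.64, 4.60 and 4.35 with CXCL12, a log2 change of 0.30. In the RefSeq gene order FYCO1 alone lies between it and CCR9. Of the 5 described receptors of that run, CCR9 and the untested CXCR6 did not overlap between groups, and XCR1, CCR1 and CCR2 did. Over all probe sets, 9.54% of those tested and 9.68% of those below the limit did not overlap. The 5 genes are too few to set the run apart from these shares. CCR1 read 4.17, 4.37 and 4.59 against 3.68, 4.76 and 4.39, the largest spread among CXCL12 arrays of the 57 genes.

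CCL22, the ligand of CCR4, had the largest change of the 57 genes, 0.57, from a low signal. It read 3.62, 3.65 and 4.19 untreated and 4.71, 4.05 and 4.398 with CXCL12, and the groups overlapped. CCL3L3, a near-identical copy of CCL3 (96.0% of the 100 bases before the start), read 3.71, 3.88 and 3.80 against 3.97, 4.46 and 4.05. CXCR2, the receptor of CXCL1, read 3.56, 3.34 and 3.48 against 3.61, 3.71 and 3.78, and no array reached its own 25th percentile. CCL20, the ligand of CCR6, read 4.09, 3.88 and 3.88 against 3.88, 4.07 and 4.37. XCL1 and XCL2, near-identical lymphotactins of activated T and NK cells, had changes of 0.09 and 0.26, which were 0.01 and 0.09 without CXCL12 replicate 3. That of XCL2 was 0.46 without CXCL12 replicate 2. The interferon-induced ligands of CXCR3, namely CXCL9, CXCL10 and CXCL11, had no array above 3.36, and CXCL13 none above 2.98. CCL11, a ligand for eosinophils just below the limit, read 4.349, 4.38 and 4.548 against 4.199, 4.2 and 4.367, a change of -0.17 with a narrow overlap. The atypical receptors ACKR4 and ACKR5 had changes of -0.29 and 0.38 with overlapping arrays. The 16 untested genes outside the naming rule had changes from -0.29 to 0.57.

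**Figure D4:**
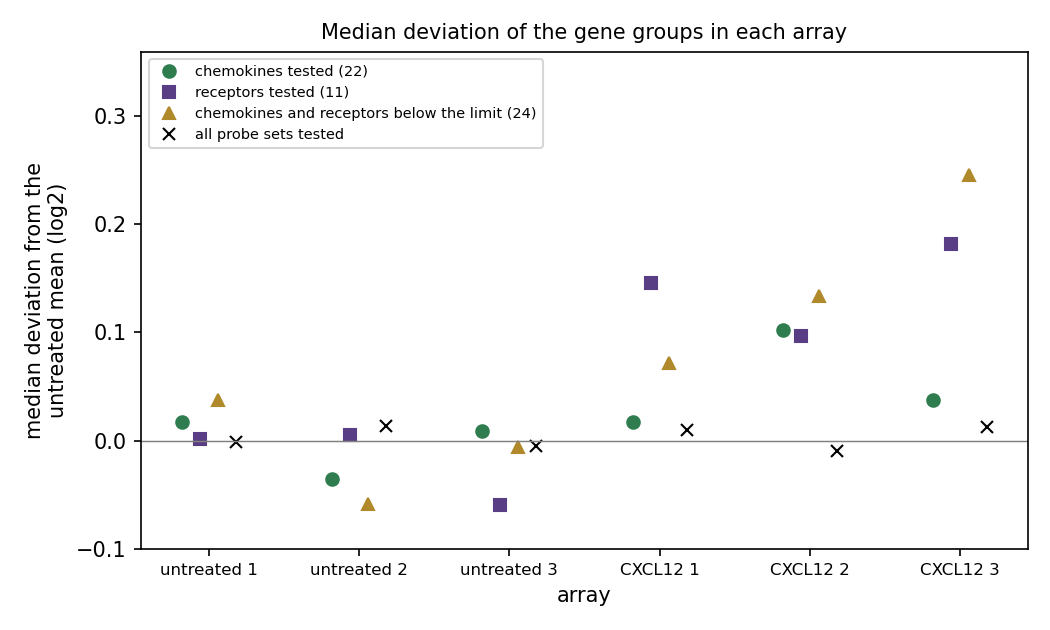
Median deviation from each gene's untreated mean (vertical axis, log2) in each of the 6 arrays (horizontal axis), for the 22 tested chemokines, 11 tested receptors, 24 genes below the limit and all probe sets tested. For the genes below the limit, CXCL12 replicates 1, 2 and 3 have 0.07, 0.13 and 0.25, and the untreated arrays span -0.06 to 0.04.

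Seen by array, the tested receptors had median deviations from their untreated means of 0.15, 0.10 and 0.18 in CXCL12 replicates 1, 2 and 3 and of -0.06 to 0.01 in untreated arrays. The tested chemokines lay at 0.02, 0.10 and 0.04, with untreated arrays from -0.04 to 0.02. All probe sets lay between -0.01 and 0.01. Deviations within untreated arrays scatter around their own mean by construction, so the 2 sets of values are not alike in kind.

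Receptors and their ligands were set side by side from a list of 34 textbook pairs of 15 receptors, drawn up after the data were seen. In 9 pairs both genes were above the limit, in 7 neither was, in 8 the receptor alone and in 10 the ligand alone. CCR7 (CCL19, CCL21), CCR10 (CCL27, CCL28), CCR9 (CCL25), CX3CR1 (CX3CL1), CCR2 (CCL2, CCL7) and CCR4 (CCL17) had a listed ligand above the limit. CXCR3, CXCR5 and XCR1 had none. CXCR1, CXCR2, CCR1 and CCR8 were below it while listed ligands were above.

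Other genes of the pathway, from 3 fixed lists, gave 0 genes past the adjusted threshold. Of 12 chemokines and receptor-like genes under other symbols, 9 were tested, with 6 positive and 3 negative changes and a median of 0.07. The chemokine-like factor CKLF (9.95 ± 0.03 and 9.91 ± 0.08; SD, n = 3 each) and MIF, a cytokine that binds CXCR4 (11.01 ± 0.08 and 10.94 ± 0.06), had changes of -0.04 and -0.07. PITPNM3, a reported CCL18 receptor, had 0.37 (95% interval 0.09 to 0.65, limma adjusted p = 0.996) without overlap. CCRL2, which binds chemerin, had 0.26 (-0.08 to 0.59) and GPR35 -0.25 (-0.54 to 0.04). Of the 9, 1 was separate and higher and 0 separate and lower, where 5.05% and 4.48% of all probe sets tested were. Of 40 genes of chemokine receptor signalling with a named probe set, 38 were tested, 17 positive and 21 negative, with a median of -0.05. PIK3CG, the PI3-kinase that G proteins activate, had 0.23 (-0.02 to 0.48) and RGS16, which shortens G protein signals, 0.24 (-0.05 to 0.53). RAP1GAP, which turns off the adhesion switch RAP1, had -0.34 (-0.62 to -0.06) and TIAM1, an activator of RAC, -0.43 (-0.78 to -0.08). Both were separate and lower. Of the 38, 1 was separate and higher and 4 separate and lower, where 5.05% and 4.48% of all probe sets tested were.

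Of 23 tested transcription factors known to act on chemokine or receptor genes, 11 changes were positive and 12 negative, and the median was -0.00561. JUN had 0.69 (95% interval 0.39 to 0.99, limma adjusted p = 0.535) and BACH2, a repressor that keeps lymphocytes quiescent, 0.46 (0.16 to 0.76, limma adjusted p = 0.996), both without overlap. Named after their values were seen, FOXP3, the factor of regulatory T cells, had 0.30 (0.03 to 0.57) and was also separate and higher, while FOS, a partner of JUN, had -0.07 (-0.32 to 0.17) and was separate and lower. The NF-kB subunits RELA and NFKB1 had -0.13 (-0.40 to 0.15) and -0.00561 (-0.33 to 0.32), REL -0.19 and EOMES, a factor of effector T cells, -0.25. Of the 23 factors, 3 were separate and higher and 1 separate and lower, where 5.05% and 4.48% of all probe sets tested were.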

How the data were processed

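Each of the 6 arrays, 3 untreated and 3 CXCL12, gave a deposited log2 value per probe set. The submitters' processing notes name RMA and Transcriptome Analysis Console. Their settings and versions and a genome build were not given in the sources used here. Of 21448 probe sets, 17709 had a gene symbol in the platform annotation. The 57 genes were taken by symbol, 1 probe set each. No gene had more than 1. Dim probe sets, whose mean was under the 25th percentile (4.44), were left out. A limma model (version 3.58.1; R 4.3.3; lmFit, then eBayes, two-sided, without covariates) was fitted to the other 16086, with Benjamini-Hochberg adjustment over all 16086 and 0.05 as the threshold. Genes below the limit have changes and intervals from the same fit without the filter and were not tested. The fit was tested on 10 sets of normal noise simulated at limma's moderated variances, each with 200 changed probe sets. Of 1000 changes of 1 on the log2 scale, 99.7% were recovered, and of 1000 changes of 0.5, 39.1% were. The adjustment is less strict where more probe sets change, and 2 passed in the real data. These shares therefore do not carry over to the comparison made here. The members, lists and tests were chosen with earlier results of these data known. Genes were named by rule, and some of them are given by array values or by change alone. The rule took the 6 receptors and 6 chemokines with the highest signal and the 4 tested genes with the smallest p in each direction. It also took the 3 on each side of the limit and 13 genes fixed by name. For CCL4, a further gene on that list, no probe set is named here. CCL1, CCL22, CCL3L3, CXCR2, CXCL5 and CXCL6 were added after their values were seen. CX3CR1, CCR2, ACKR4, ACKR5, CXCL9, CXCL10, CXCL11 and CXCL13 were also given with values outside the naming rule. Alternatives were other filters, normalizations and models and leaving out each array. Same-numbered arrays' deviations correlated at -0.19, -0.11 and 0.11 over probe sets, and the labels state no pairing, so numbers were not taken as pairs. The labels call the samples biological replicates without saying whether cultures were separate, so p-values measure the spread between these samples. The number of arrays limits the precision. Promoter letters are from RefSeq (GRCh38.p14).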

Additional observations from a re-analysis of the deposited data

How the results depend on the processing

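The count of 0 chemokine or receptor genes past the adjusted threshold held in each of its 16 alternatives, unadjusted p with a 1.5-fold change included, and the lowest limma adjusted p of a named gene was 0.594 (CCR9 with array weights). The count of 3 genes at an unadjusted p became 7 when dim probe sets were kept, 0 with the lower 50% left out, 5 with array weights and 2 with a replicate block, the trended robust prior, quantile normalization, median centring or cyclic loess. Leaving out 1 array at a time gave 2 (CXCL12 replicate 3) to 5 (untreated replicate 1). The count of 4 genes without overlap became 7 with no filter and 0 with the lower 50% left out, which removes all 4, and 3 with quantile normalization, median centring or cyclic loess. Leaving out 1 array gave 5 to 9, since fewer arrays separate more easily, with 9 for CXCL12 replicate 1 and 7 for CXCL12 replicate 2. The share of all probe sets was not counted with an array left out, so these counts cannot be set against the 9.54% of all 6 arrays. The count of 33 genes above the limit became 5 when the limit was the median, by construction, and 25 to 34 otherwise. Over all probe sets the count of 2 became 1 with no filter, median centring or cyclic loess 4 with array weights and 3 with the lower 50% left out or the trended robust prior, and 1 to 2 with 1 array left out. The replicate block changed no other call.

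Of 443 values of named genes under alternatives, 36 in 15 genes had the opposite sign, and none of these genes passed the threshold under any alternative in which it was tested. Of these, 32 were in 12 tested genes, given here, and 4 in the untested CCR1, CCR8 and CXCL8. Under quantile normalization, median centring and cyclic loess, CXCR3 had -0.0165, -0.0128 and -0.0147 and CXCL3 -0.0194, -0.0124 and -0.0131, and CCL28 had -0.0072 and -0.00376 with quantile and cyclic loess. With array weights ACKR2 had 0.00778, CCL27 -0.0344 and CXCL3 -0.00126. With 1 array left out, ACKR2 ran from -0.172 to 0.0823, CXCR3 from -0.0993 to 0.0663, XCR1 from -0.0929 to 0.182, CCL19 from -0.0267 to 0.156, CCL27 from -0.0737 to 0.119, CXCL3 from -0.207 to 0.167, CX3CL1 from -0.0451 to 0.308, CXCL2 from -0.0298 to 0.198, CXCL14 from -0.203 to 0.00914, CXCL12 from -0.189 to 0.0413, CCL5 from -0.177 to 0.0451 and CCL28 from -0.0313 to 0.121. Of the tested genes whose sign held, CCL25 ran from 0.00367 to 0.0887 and CCR4 from 0.066 to 0.327. Of the untested genes whose sign held, CCL20 ran from 0.0237 to 0.27 and CCL11 from -0.226 to -0.11. The untested genes whose sign turned were CCR1 (-0.34 to 0.196), CCR8 (-0.322 to 0.0414) and CXCL8 (-0.154 to 0.0496). The cause of these changes was not tested.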
